A study of Mus musculus with 5 samples.

Results

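The genes described here make cholesterol and fatty acids in the mouse embryonic forelimb. They were taken from a list of 28 symbols by exact match of the gene name in the deposited expression table, and 26 of the 22653 genes with a row of their own matched. The other 2 symbols, Tm7sf2 and Scd2, occur only in rows that join them to another gene and are given apart. RNA was sequenced from forelimbs at E11.5, a stage of 47 to 48 somites, in mice of mixed C57BL/6 and Swiss Webster strain. There were 3 samples labelled control, with no further genotype given, and 2 samples named Prmt5cKO with the genotype Prx1Cre+/-;Prmt5c/c. In these, a Cre recombinase active in limb mesenchyme meets conditional alleles of Prmt5, which encodes an arginine methyltransferase that acts on histones and splicing proteins. The question is how the forelimb transcriptome differs without this enzyme in its mesenchyme. The table gives 1 FPKM value per gene and genotype, that is, fragments scaled to transcript length and library total, so no value carries a replicate error, and sample depths are unknown. Prmt5 itself went from 40.9 to 12.5 FPKM, 30.6% of control. Which exons the conditional alleles lose is not stated and other cells of the forelimb also hold the transcript, so this does not measure the deletion. Xist, from the inactive X, had 87.3 FPKM in control but 0.392 in Prmt5cKO, whereas Ddx3y of the Y chromosome had 0.0840 and 21.8, so for every difference below, genotype cannot be told apart from the sex of the embryos.

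Cells build cholesterol from acetyl-CoA through mevalonate, isoprenoid units, squalene and a series of sterol ring reactions. Fatty acids start from the same acetyl-CoA, which Acly cuts from citrate and which Acaca and Fasn extend into chains that elongases and desaturases then modify. Both branches are controlled by the SREBP transcription factors, encoded by Srebf1 and Srebf2, which Insig proteins hold in the endoplasmic reticulum while sterol is plentiful. In the limb bud cholesterol is also known for its covalent attachment to Sonic hedgehog and its action on the receptor side of that pathway, and inherited defects of the late sterol enzymes, such as Dhcr7, are known for limb malformations.

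Most of these genes stood lower in Prmt5cKO than in control, by small amounts. Of the 26 genes, 9 fell at the authors' q under 0.05 with a mean of at least 1 FPKM: Acat2, Mvk, Pmvk, Fdft1, Nsdhl, Srebf1, Srebf2, Scd1 and Fads2. None rose and 12 did not pass, and the authors left 5 untested, read here from rows whose fold is 0 while q is 1 (Hmgcs1, Insig1, Acly, Acaca and Fasn). The share that fell was 34.6%, against a background of 17.6% of 11674 single genes at the same minimum. Over tested genes only it was 42.9% of 21, against 19.3% of all tested genes and 19.8% of tested genes with a mean of at least 10 FPKM. Rises made up 4.39% of all genes. Counting FPKM alone, 24 of the 26 genes were below control and Fasn and Elovl6 above it, while 69.8% of all genes were below. After rescaling by the median ratio of all genes, or after quantile normalization, 22 of 26 were below and Idi1 and Lss joined those above. The median log2 ratio of the 26 genes, computed as log2((Prmt5cKO FPKM + 1) / (control FPKM + 1)), was -0.30, against -0.12 for all genes. By that measure 23 of the 26 genes, Lss among them, lay below the median of all genes. The rescaled count above leaves out the added 1 FPKM. Without it Lss stood at -0.1302 against a median of -0.1309. The tissue was the whole forelimb, so fewer cells of a type and less RNA per cell cannot be told apart.

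**Figure D1:**
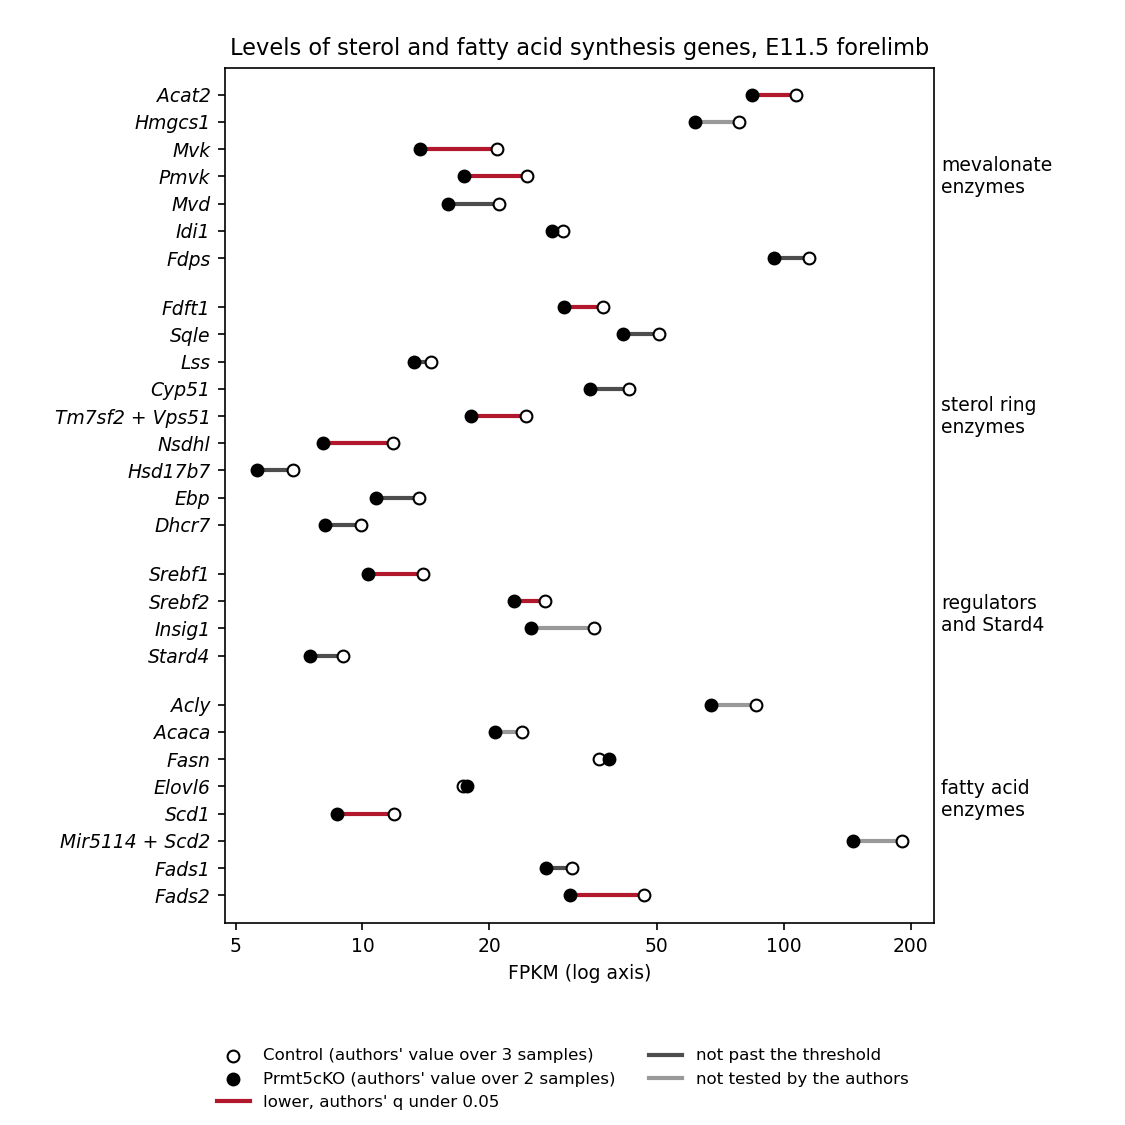
Level of each gene in FPKM (log axis) in control (open circles, authors' value over 3 samples) and Prmt5cKO (filled circles, authors' value over 2 samples), in pathway order; line colour gives the authors' call, and 2 rows join a member to another gene. Filled circles lie to the left of open ones except for Fasn and Elovl6, and the levels span from 5.63 FPKM for Hsd17b7 to 190 FPKM for the row of Scd2.

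The enzymes that lead to farnesyl diphosphate, the last shared intermediate before squalene, held the largest fall of the sterol branch. Of 7 such genes 3 fell (Acat2, Mvk and Pmvk), 3 did not pass and Hmgcs1 was not tested. Acat2, the cytosolic thiolase that joins acetyl-CoA units, stood at 107 FPKM in control against 84.2 in Prmt5cKO. The authors' deposited table lists a log2 fold of -0.35 with q = 0.0235. Its close paralog Acat3 stood at 56.6 and 54.3 FPKM, and how reads were split between these copies is not stated. Hmgcs1, which makes HMG-CoA from the thiolase product, stood at 78.4 and 61.6 FPKM, 78.6% of control and close to the 78.7% of Acat2, without a test. The mevalonate kinase gene Mvk went from 20.8 to 13.7 FPKM, which is 65.6% of control. The authors' deposited table lists a log2 fold of -0.61 with q = 3.79e-06 for it, the lowest ratio among the 26 genes. Pmvk, which adds the next phosphate, went from 24.6 to 17.4 FPKM (log2 fold -0.50 with q = 0.0159 by the authors' deposited table). The kinases that act in sequence on mevalonate thus both fell. Mvd, the decarboxylase after them, stood at 21.1 and 15.98 FPKM and missed the threshold (log2 fold -0.40 with q = 0.0739 by the authors' deposited table). Fdps, the synthase of farnesyl diphosphate and the most abundant single-gene row of the 26, stood at 115 and 94.8 FPKM (q = 0.0725 in the authors' deposited table). Fdps and Mvd overlap the predicted genes Gm43738 and Gm20388 in GENCODE M21. Idi1, the isomerase of the isoprenoid units, stayed closest to control of the sterol enzymes, at 29.9 and 28.2 FPKM with q = 0.721 in the authors' deposited table.

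SREBP proteins are known to act at sterol regulatory elements in promoters, beside sites of NF-Y and Sp1. RefSeq promoter windows (GRCm38.p6, from 250 bases before to 50 after a start) were therefore searched on both strands for TCACNCCAC, a form of the sterol element, for CCAAT, the letters bound by NF-Y, and for GGGCGG, the letters bound by Sp1. Windows were on hand for 21 of the 28 listed genes, not for Sqle, Fdft1, Fdps, Scd1, Scd2, Fads1 and Stard4, and matches of different motifs overlapped in 0 windows of the members. TCACNCCAC occurred in 1 member, Hmgcs1, and in 1.38% of 8749 measured genes with a window. CCAAT occurred in 12 of 13 sterol enzymes, 3 of 3 regulators and 2 of 5 fatty acid enzymes, against 43.4% of the measured genes and 41.1% of all 27025 genes with a window. GGGCGG occurred in 12 of 13 sterol and 2 of 5 fatty acid enzymes, against 70.6% of measured genes. Over all measured genes the median log2 ratio was -0.13 with CCAAT and -0.11 without it, and 18.9% and 16.9% fell. Genes with several annotated starts had several windows and counted as holding a motif if any window did, as for Dhcr7, where 1 of its 3 windows held CCAAT. That window, at chr7:143829964-143830263, lies inside the gene, whose annotated start in GENCODE M21 is 143823145. The Dhcr7 windows nearer that start held no CCAAT, and the gene counts among the 12 sterol enzymes with it. The only window of Acaca, at chr11:84195188-84195487, lies inside the gene, whose annotated start in GENCODE M21 is 84129672. It counts among the 5 fatty acid windows and does not cover that start. A match describes the letters and not a bound site.

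The windows of 3 genes are shown, chosen after their values were seen: Hmgcs1 for its sterol-element match, Mvk as the largest fall of the sterol branch with the most CCAAT matches of any member (5), and Fads2 as the largest fall among fatty acid enzymes, without either. They lie at chr13:119690101-119690400 on the plus strand, chr5:114444019-114444318 on the plus strand and chr19:10101454-10101753 on the minus strand of GRCm38.p6. Each is written in the direction of the gene, and capitals mark CCAAT, which reads ATTGG on the other strand, and also TCACNCCAC.
Hmgcs1: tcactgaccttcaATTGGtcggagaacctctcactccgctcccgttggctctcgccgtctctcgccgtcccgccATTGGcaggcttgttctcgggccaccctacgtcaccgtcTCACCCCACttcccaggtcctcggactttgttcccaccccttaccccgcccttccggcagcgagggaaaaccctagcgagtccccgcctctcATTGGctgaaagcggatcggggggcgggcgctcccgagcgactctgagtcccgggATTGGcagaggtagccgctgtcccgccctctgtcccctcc
Mvk: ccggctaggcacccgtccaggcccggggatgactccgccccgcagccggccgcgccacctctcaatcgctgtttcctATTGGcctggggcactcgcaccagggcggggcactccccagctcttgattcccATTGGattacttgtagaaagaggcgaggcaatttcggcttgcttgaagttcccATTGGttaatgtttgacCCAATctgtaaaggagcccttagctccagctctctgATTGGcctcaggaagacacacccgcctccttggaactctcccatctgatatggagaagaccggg
Fads2: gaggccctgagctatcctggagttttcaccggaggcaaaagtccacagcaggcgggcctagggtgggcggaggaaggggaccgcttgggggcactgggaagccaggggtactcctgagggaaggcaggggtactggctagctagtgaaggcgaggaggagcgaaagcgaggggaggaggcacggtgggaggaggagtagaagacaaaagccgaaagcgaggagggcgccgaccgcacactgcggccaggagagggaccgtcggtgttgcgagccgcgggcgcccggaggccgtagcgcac

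The match in Hmgcs1 reads TCACCCCAC and starts at base 114 of its window, between CCAAT matches on the opposite strand that start at bases 75 and 206. In Mvk 4 of the 5 matches are on the opposite strand. The Mvk window also holds the annotated start of Mmab, a gene on the minus strand, at 114444060 in GENCODE M21. Its matches are thus not particular to Mvk. Among the other sterol genes Nsdhl held 4 CCAAT matches, Hsd17b7, which did not pass, 3, and Idi1, Mvd, Ebp and Dhcr7 2 each. Cyp51, Lss, Tm7sf2 and Pmvk held 1 each, and Acat2, which fell, held 0. For genes with several windows this is the count of the window with the most matches. Whether the number of matches goes with the ratio was not tested.

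Between farnesyl diphosphate and cholesterol most ratios to control lay close together. Of 8 genes with a row of their own 2 fell (Fdft1 and Nsdhl) and 6 did not pass. The X-linked gene Nsdhl (chromosome X, 72918557 to 72958514, GENCODE M21 on GRCm38), whose enzyme removes methyl groups of the sterol ring, went from 11.8 to 8.08 FPKM. In the authors' deposited table its log2 fold change was -0.55 with q = 0.00323. Fdft1, the squalene synthase that commits farnesyl diphosphate to sterols, went from 37.2 to 30.1 FPKM (log2 fold -0.31 with q = 0.00709 by the authors' deposited table). Fdft1 overlaps Ctsb on the opposite strand; strand use in counting is not stated, and Ctsb stood at 38.2 and 42.1 FPKM, in the other direction. Cyp51, the demethylase of lanosterol, stood just outside the threshold at 43.0 and 34.7 FPKM, with q = 0.0539 in the authors' deposited table. Its log2 fold of -0.31 by the authors' deposited table was as large as that of Fdft1, so q and not size separates them. Cyp51 overlaps Akap9 on the opposite strand, which stood at 17.0 and 15.5 FPKM. Sqle, the oxidase of squalene, stood at 50.7 and 41.5 FPKM (q = 0.0846 in the authors' deposited table). The reductase gene Dhcr7, whose enzyme makes the last reduction to cholesterol, stood at 9.94 and 8.15 FPKM, and Hsd17b7, a ketone reductase of the ring, at 6.84 and 5.63, with q of 0.167 and 0.135 in the authors' deposited table. The X-linked isomerase gene Ebp stood at 13.7 and 10.8 FPKM (q = 0.262 in the authors' deposited table), and Lss, the cyclase that forms lanosterol, at 14.5 and 13.3 (q = 0.467). Fdft1, Sqle, Cyp51, Dhcr7 and Hsd17b7 all lay between 80.7% and 82.2% of control. The row joining Tm7sf2, a ring reductase gene, to Vps51 went from 24.5 to 18.1 FPKM with q = 0.00632 in the authors' deposited table, and reads of the 2 genes cannot be told apart there.

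Both SREBP genes fell. Srebf2, whose product acts mainly on sterol genes, went from 27.1 to 22.9 FPKM, or 84.6% of control. In the authors' deposited table its log2 fold change was -0.24 and its q 1.89e-04. Srebf1, whose product acts mainly on fatty acid genes, went from 13.9 to 10.3 FPKM (log2 fold -0.43 with q = 0.00251 by the authors' deposited table). It overlaps Rai1 on the opposite strand, which stood at 6.47 and 7.15 FPKM. FPKM does not separate the isoforms of Srebf1, which RefSeq lists with 3 promoter windows. Insig1, both an inhibitor and a known target of the SREBP proteins, stood at 35.5 and 25.1 FPKM, 70.5% of control, without a test. Stard4, a carrier of sterol through the cytosol, stood at 8.995 and 7.501 FPKM (q = 0.0891 in the authors' deposited table). All 4 genes lay below control and below the median ratio of all genes.

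The fatty acid enzymes were divided. Of 7 genes with a row of their own 2 fell (Scd1 and Fads2), 2 did not pass, and the authors did not test the 3 that carry acetyl-CoA into palmitate. Acly stood at 86.1 and 67.1 FPKM, Acaca, the carboxylase that makes malonyl-CoA, at 24.0 and 20.7, and Fasn, the synthase, at 36.4 and 38.5. Along these steps the ratio to control went from 77.9% for Acly to 86.4% for Acaca and 106% for Fasn. Elovl6, which lengthens palmitate, stood at 17.3 and 17.7 FPKM with q = 0.904 in the authors' deposited table. The changes that passed were in desaturases, which place double bonds in the chain. Among the 7 genes, Elovl6 was the only tested gene that is not a desaturase. Fads2, the first desaturase of polyunsaturated fatty acids, went from 46.6 to 31.0 FPKM, 66.6% of control (log2 fold -0.59 with q = 2.88e-11 by the authors' deposited table), the smallest q of the 26 genes. Fads1, the next desaturase, lies near it on chromosome 19 and stood at 31.5 and 27.3 FPKM (q = 0.149 in the authors' deposited table). Scd1, which makes monounsaturated fatty acids, went from 11.8 to 8.70 FPKM (log2 fold -0.45 with q = 0.00746 by the authors' deposited table). Its paralog Scd2 shares a row with Mir5114, a microRNA within it, at 190 and 146 FPKM, 76.8% of control and without a test. On the FPKM scale the Scd2 row was far above Scd1 in both genotypes. Reads that match both paralogs may have been split between them, and how such reads were counted is not stated.

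The sterol and fatty acid branches could not be separated by these values. The median log2 ratio, with the pseudocount of 1 FPKM, was -0.30 over 15 sterol enzymes and -0.20 over 7 fatty acid enzymes. In the sterol branch 5 of 15 genes fell (33.3%), and in the fatty acid branch 2 of 7 (28.6%), both beside the background of 17.6%. Over tested genes only the order turned, with 35.7% of 14 sterol genes and 50% of 4 fatty acid genes, beside 19.3% of all tested genes. The sterol ratios ran from -0.57 to -0.08 with all 15 below 0, while the fatty acid ratios ran from -0.57 to 0.08, so the ranges overlapped nearly throughout. The medians differed by -0.10. Without the rows the authors did not test that difference was 0.0036, and it was -0.029 with the rows of Tm7sf2 and Scd2 counted in. Within the sterol branch the 7 mevalonate enzymes had a median of -0.34 and the 8 ring enzymes one of -0.29. No test between branches was made, since each gene has 1 value per genotype.

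**Figure D2:**
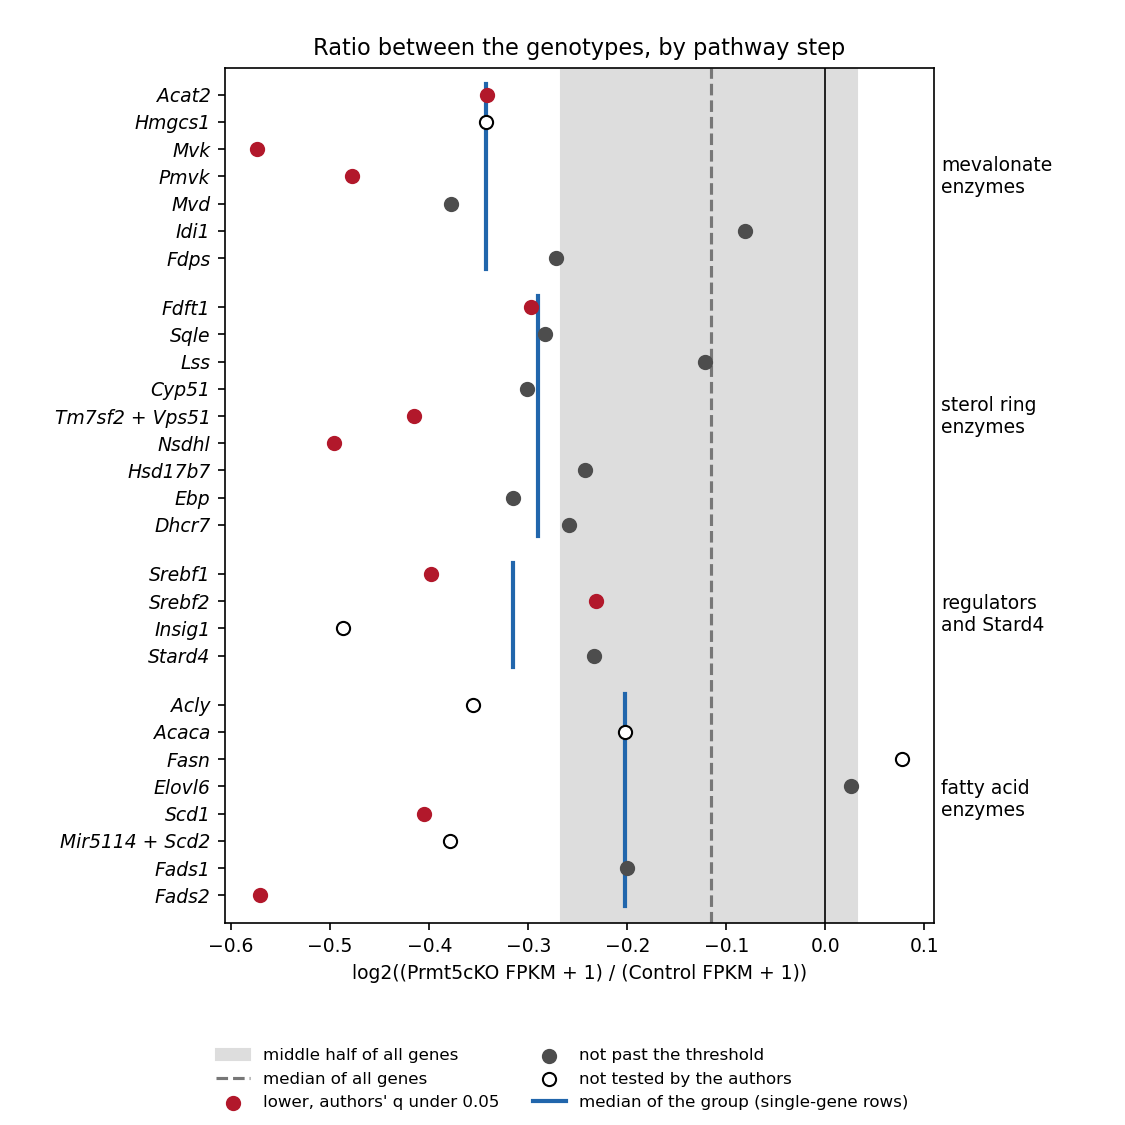
Log2 ratio of Prmt5cKO over control with 1 FPKM added to each (x axis) for every gene in pathway order, coloured by the authors' call, with the median of each group (blue) beside the median (dashed) and the middle 50% (grey) of all genes. The group medians lie at -0.34, -0.29, -0.32 and -0.20 from top to bottom, all to the left of the median of all genes at -0.12, and Fasn is the gene farthest to the right.

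Genes next to these branches were taken from lists of neighbouring pathways, whose medians all lay within the middle 50% of all genes, from -0.27 to 0.03. Of 7 other sterol enzymes at the minimum level 3 fell and none rose. They were Aacs, which makes acetoacetyl-CoA from ketone bodies (12.7 to 8.77 FPKM), Msmo1, the methyl oxidase of the ring (44.5 to 34.3), and Lbr, a lamin receptor with ring reductase activity (65.4 to 58.1). The authors' deposited table lists their log2 folds as -0.54, -0.38 and -0.17. The median log2 ratio of the 7 was -0.17. Acat1 of the same list, joined in its row to Cul5 and not among the 7, went from 39.3 to 34.7 FPKM (q = 0.00972 in the authors' deposited table).

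Among 10 genes that control SREBP, 1 rose and 1 fell. Scap, the escort that carries SREBP to the Golgi, went up from 11.4 to 13.8 FPKM while both Srebf genes went down (log2 fold 0.28 with q = 9.34e-05 by the authors' deposited table). Mylip, a ubiquitin ligase for lipoprotein receptors, went from 17.8 to 11.2 FPKM (log2 fold -0.67 with q = 2.72e-04 by the authors' deposited table). Insig2 stood at 6.32 and 5.37 FPKM and the protease gene Mbtps1 at 51.4 and 44.9, and neither passed. The row of Mbtps2, the other protease of SREBP and X-linked, joined to Yy2, went from 9.92 to 11.6 FPKM (q = 0.0255 in the authors' deposited table).

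Of 13 genes with a row of their own in side branches that use isoprenoids 3 fell, none rose and 1 was not tested. Their median was -0.12, equal to that of all genes. Those that fell were Coq2 of ubiquinone synthesis (25.4 to 20.2 FPKM), Icmt, which methylates prenylated proteins (19.4 to 16.2), and Trit1, which modifies transfer RNA (16.8 to 14.1). The row joining Rabggtb of the same list to Msh4, Snord45b and Snord45c rose from 39.4 to 48.9 FPKM (q = 2.64e-10 in the authors' deposited table). Reads of the joined genes cannot be told apart there. Of 11 genes for sterol transport and storage 2 fell, the lysosomal sterol carrier Npc2 (36.5 to 27.7 FPKM) and the endosomal Stard3 (14.5 to 11.2), and none rose; the median was -0.19. In a list of 20 other genes of fatty acid synthesis 6 fell and none rose, with a median of -0.14. Acsl3, joined in its row to Utp14b and not among the 20, went from 47.2 to 37.4 FPKM (q = 2.11e-11 in the authors' deposited table). Acss2, which makes acetyl-CoA from acetate, went from 5.49 to 2.37 FPKM, listed at a log2 fold of -1.21 with q = 4.72e-08 by the authors' deposited table, larger than that of any of the 26 genes. Me1, a source of NADPH, went from 2.13 to 1.15 FPKM, and Tecr, the reductase that completes each elongation cycle, from 127 to 91.7; the authors' deposited table lists log2 folds of -0.89 and -0.47. The shares of falls in these lists, 42.9% of the other sterol enzymes, 23.1% of the side branches, 18.2% of the transport list, 30% of the fatty acid list and 1 of the 10 genes that control SREBP, stand beside the 17.6% of all genes.

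**Figure D3:**
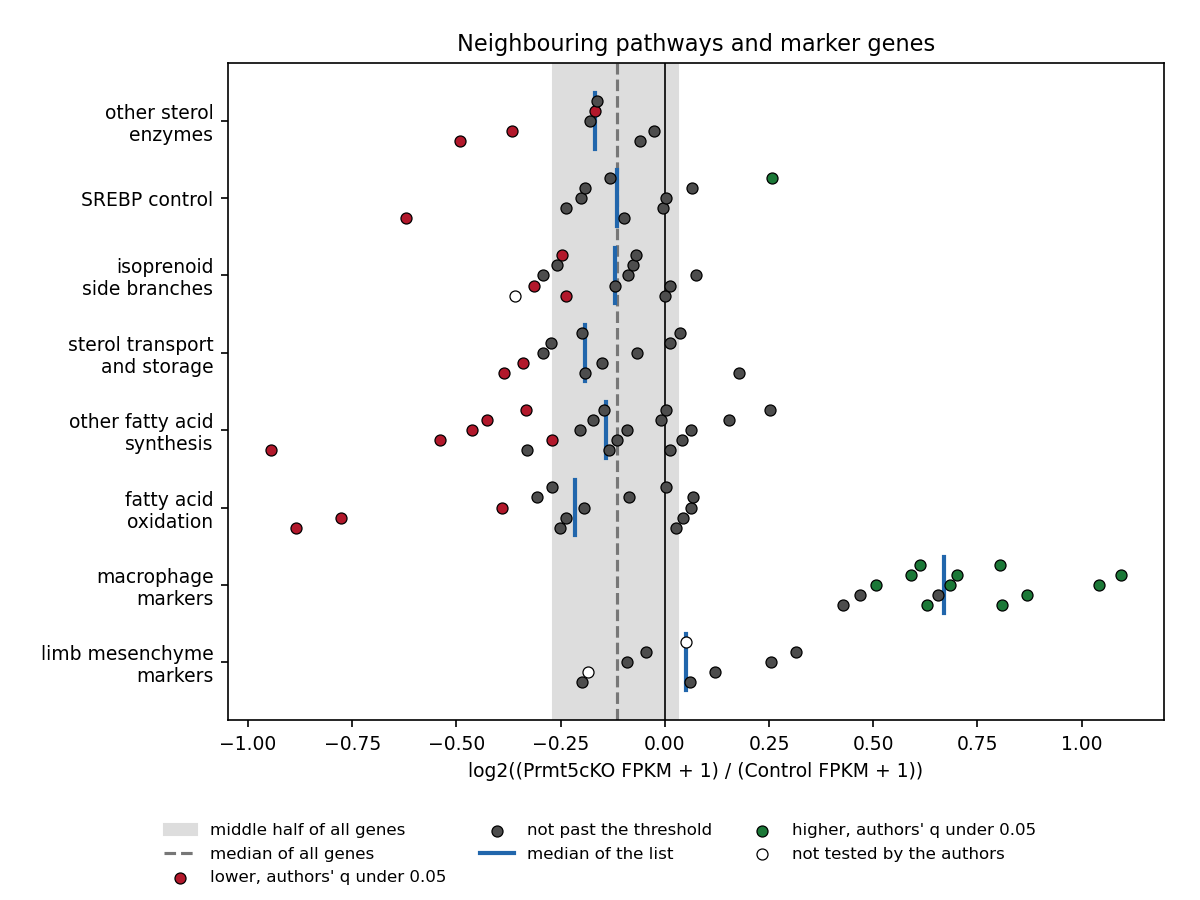
Log2 ratio of Prmt5cKO over control with 1 FPKM added to each (x axis) for genes of neighbouring pathways and for 2 marker lists, coloured by the authors' call, with each list's median (blue) beside the median (dashed) and middle 50% (grey) of all genes. Macrophage markers lie to the right of 0, at a median of 0.67, while the pathway lists lie between -0.22 and -0.11.

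Several facts of the whole comparison stand beside these values, and their part in them was not tested. Of all 11674 single genes at the minimum level 17.6% fell and 4.39% rose, and the counts below stand beside these shares. Of 395 X-linked genes 22.0% fell, with a median log2 ratio of -0.15; without the X-linked Nsdhl and Ebp, 8 of 24 members fell. Markers of limb mesenchyme were present, with Prrx1 at 122 and 107 FPKM and Twist1 at 111 and 107; of 9 such genes none of the 7 that were tested passed, and Prrx1 and Lhx9 were not tested. The row joining the listed marker Hoxa11 to Hoxa9, Hoxa10 and Mir196b was not among the 9. It fell from 136 to 121 FPKM, with q = 4.61e-04 in the authors' deposited table. The forelimb gene Tbx5 stood at 23.0 and 19.9 FPKM, and the hindlimb genes Pitx1 at 0.143 and 0.268 and Tbx4 at 3.81 and 2.95. Of 14 macrophage markers 11 rose, with summed levels of 42.8 FPKM in control and 80.6 in Prmt5cKO and none at 0; C1qb went from 5.49 to 12.4, C1qc from 5.13 to 9.70, and C1qa stood at 5.84 and 8.47. Of 11 erythroid markers 2 fell, a share of 18.2% that is near the 17.6% of all genes. None rose and 1 was not tested, and the sum of the list, mostly embryonic globin, was 7855 and 6198 FPKM. Fat cells and liver cells make much lipid, and their defining markers were at or near 0: Adipoq was listed at 0.149 and 0, Plin1 at 0.0332 and 0.0270 and Alb at 0.109 and 0.129 FPKM. Of 8 fat cell markers 2 reached the minimum level and Lpl, a lipase also made by other cells, rose from 2.82 to 4.27 FPKM; of 7 liver cell markers 1 reached it and none passed. Of 12 surface ectoderm markers 1 rose (Epcam) and 1 fell (Krt15), with sums of 193 and 186 FPKM, and of 3 nerve and Schwann cell markers at the minimum level 2 fell (Erbb3 and Gfra3), with sums of 14.3 and 10.2 FPKM over the whole list of 8.

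The ratio of a gene showed little relation to its level. Members were well expressed, with a median of 25.9 FPKM in control against 11.8 for all genes, and the rank correlation of log2 ratio with control FPKM was -0.06 over the 26 members. Transcript length gave a higher value: over the 15 sterol enzymes the rank correlation of log2 ratio with spliced length was 0.60, with lower ratios in shorter transcripts. Without the shortest and the longest it was 0.45 over 13. Over 11145 genes it was -0.03. Pmvk and Mvk, with spliced lengths of 1194 and 1660 bases, were among the lowest ratios, and Lss, with 4667, was among the highest. Lengths are those of the longest protein-coding transcript in GENCODE M21, genes of a branch are not independent, and FPKM is itself divided by length, so this is a description of these rows. With exon number the rank correlation was 0.07 over the sterol enzymes and 0.01 over all genes.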

How the data were processed

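Per the labels' protocols, TRIzol was used to extract RNA for Illumina libraries. Tools named by the submitters' processing notes, without roles, are Cufflinks 2.1.1, Bowtie2 2.1.0 and TopHat2 2.0.10, with the build mm10. The authors deposited 1 FPKM value per gene and genotype, per the file headers. They also deposited a log2 fold change, held here as a score because infinite folds are coded by a very large number, and a q-value, per the file headers. Not given in the sources used here are their test, the annotation and how replicates were joined. The table has 28092 rows; 4367 (15.5%) name no gene and 597 name several, and both kinds were left out of counts. Deposited folds differed from the log2 ratio of the FPKM columns by at most 1.3e-05 over 20663 rows.

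With no values per sample, the planned limma test was not run, and a call is the authors' q under 0.05 at a mean of at least 1 FPKM. For a repeated symbol the row with the highest mean was used. List medians use a pseudocount of 1 FPKM, which understates changes of low genes. Members and lists were chosen with earlier results of these data known. From each neighbouring list the text names up to 3 falls and 3 rises past the threshold; other names were added with their values known. Single values of some listed genes are not reported here. Coordinates and lengths are from GENCODE M21, promoters from RefSeq GRCm38.p6. The work was done in Python 3.11.15 with pandas 2.3.3. The choice of rows, the ratios with their median and the quantile normalization were tested on simulated data. The step that counts calls was not.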

Additional observations from a re-analysis of the deposited data

How the results depend on the processing

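With no values per sample in the table, leaving out each replicate was not run. No paired analysis was possible because the table gives 1 value per genotype. A median was taken as moved where it shifted by at least 0.1. The count of 9 falls was 14 at q under 0.10, where 21.5% of all genes fell. It was 7 at q under 0.01, where the share of all genes was not computed, so that count has no background beside it. It was 8 without the X-linked genes and 10 with rows of several genes counted. The other level minimums could not change these counts, since every member has a mean above 5 FPKM. Rescaling leaves the authors' q as it is and turned none of the 9 genes, and no gene above control had a q under 0.10, so the 0 rises were not put to a test. With a q under 0.10 the added genes were Cyp51, Fdps, Mvd, Sqle and Stard4. Rescaling by the median ratio of all genes moved the sterol median to -0.19 and the fatty acid median to -0.087, since all genes leaned downwards. Without the untested rows the fatty acid median was -0.30 and the difference between branches reversed to 0.0036. That difference was -0.020 with the regulators and Stard4 counted among the enzymes. Each of the 9 genes that fell kept a log2 ratio below 0 under rescaling and quantile normalization. With the shorter letters CACNCCAC 2 of 13 sterol enzymes (15.4%) held the sterol-element match in place of 1. So did 1 of 3 regulators and 0 of 5 fatty acid enzymes, against 7.70% of 8749 measured genes with a window. With CCAAT in its place 12 sterol and 2 fatty acid enzymes held a match, against 43.4% of the measured genes. Without depth or replicate values, differences of the size seen here, mostly under 0.6 on the log2 scale, rest on the authors' q alone.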

Other observations

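Genes of fatty acid oxidation, the process that breaks these chains down, were also looked at. Of 14 at the minimum level 3 fell and none rose, a share of 21.4% that is near the 17.6% of all genes, and the median log2 ratio was -0.22 against -0.12 for all genes. Acadvl, the first dehydrogenase for very long chains, went from 26.6 to 13.96 FPKM, Decr1, which clears double bonds, from 16.2 to 9.07, and Hadha, a subunit of the mitochondrial trifunctional enzyme, from 45.0 to 34.1. The authors' deposited table lists their log2 folds as -0.93, -0.84 and -0.40. Cpt1a, which admits fatty acids to mitochondria, stood at 5.90 and 6.24 FPKM and Acadm at 17.4 and 14.6, and neither passed.

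Mmab, looked at after the values of Mvk were seen, lies head to head with Mvk on chromosome 5, with annotated starts 209 bases apart in GENCODE M21. It makes the active form of cobalamin and is no sterol enzyme. It went from 8.97 to 5.31 FPKM (log2 fold -0.76 with q = 4.49e-13 by the authors' deposited table), so both genes of this pair fell. The annotated start of Mmab falls inside the Mvk promoter window shown above.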
